A study of Mus musculus with 13 samples.

Results

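The genes described here are 10 mouse genes that read out 2 transcription systems tied to the cytoskeleton. Ccn1, Ccn2, Ankrd1, Amotl2 and Lats2 are targets of YAP and its TEAD partners, Acta2, Tagln and Vcl are targets of SRF, and Vim and Cav1 encode a cytoskeletal and a membrane coat protein. They were chosen by name, as every probe set that the platform table gives to only one of these symbols, with the older names Cyr61 for Ccn1 and Ctgf for Ccn2 accepted. All 10 were found, out of 12394 genes on the array, with 21 probe sets between them. A further probe set is annotated to both Xpo4 and Lats2 and was left out. The samples were 13 preparations of primary mouse keratinocytes, all carrying a retrovirus that expresses DNp63alpha fused to an estrogen receptor domain (ERDNp63a). One array held untreated cells, and 12 arrays held cells collected every 20 min from 20 to 240 min after tamoxifen, the ligand that induces the fusion. Every array came from cells with the fusion, so time, tamoxifen and handling cannot be told apart, and tamoxifen without the fusion was not analysed here. Strain and age of the mice are not given in the sources used here. Nothing says that each array had a culture of its own, and the p-values then reflect array-to-array spread alone, which may be technical.

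YAP and its relative TAZ (Wwtr1) are coactivators that bind TEAD factors in the nucleus when the Hippo kinases, among them the LATS kinases, do not hold them in the cytoplasm. SRF is a transcription factor whose cofactors of the MRTF family are held back by unpolymerised actin, so that its contractile and adhesion targets follow the state of the actin cytoskeleton. In epidermal keratinocytes both systems respond to cell shape, adhesion and crowding, and DNp63alpha is the main p63 isoform of the basal layer.

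RefSeq promoter windows, from 250 bases before to 50 bases after an annotated start in GRCm38.p6, were found for 8 of the 10 genes, 10 windows in all. The core TEAD hexamer GGAATG, on either strand, occurred in 14.7% of 32851 windows of all genes, and in 6 of the 10 windows here. These 6 windows belonged to 6 genes, Ccn1, Ankrd1, Amotl2, Lats2, Acta2 and Vcl. The CArG box, the SRF motif, was searched on both strands as CC, then 6 bases of A or T, then GG. This strict form occurred in 1.63% of windows, here in Vcl alone. The Acta2 window holds ccctatatgg and ccttgtttgg, which have a G or C among those 6 bases and were not counted. The AP-1 site TGANTCA occurred in 7.81% of windows and in none of these. The 5 windows below are shown because 3 belong to YAP/TEAD targets that fell over the course (Ccn1, Amotl2, Lats2). The other windows belong to the SRF target that rose (Acta2) and to the gene with a match to both patterns (Vcl). They are written 5′ to 3′ on the strand of the gene, with the hexamer or its reverse complement, and in Vcl also the CArG box, in capitals. The windows lie at chr3:145649936-145650235 (minus strand), chr9:102717554-102717853 (plus), chr14:57746074-57746373 (minus, one of 2 Lats2 windows), chr19:34255324-34255623 (minus) and chr14:20929148-20929447 (plus).
Ccn1: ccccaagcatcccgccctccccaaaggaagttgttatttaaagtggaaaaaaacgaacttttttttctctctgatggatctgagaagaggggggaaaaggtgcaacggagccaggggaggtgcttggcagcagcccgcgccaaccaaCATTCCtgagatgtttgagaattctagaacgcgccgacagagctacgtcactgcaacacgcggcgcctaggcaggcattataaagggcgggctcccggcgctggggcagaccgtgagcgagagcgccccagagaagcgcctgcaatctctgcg
Amotl2: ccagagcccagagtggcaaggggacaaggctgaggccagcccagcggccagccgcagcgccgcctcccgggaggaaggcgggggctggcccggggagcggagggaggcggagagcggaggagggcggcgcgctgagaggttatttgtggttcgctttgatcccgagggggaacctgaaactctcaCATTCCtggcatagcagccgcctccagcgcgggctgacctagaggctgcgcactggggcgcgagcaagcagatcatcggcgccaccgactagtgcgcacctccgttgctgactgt
Lats2: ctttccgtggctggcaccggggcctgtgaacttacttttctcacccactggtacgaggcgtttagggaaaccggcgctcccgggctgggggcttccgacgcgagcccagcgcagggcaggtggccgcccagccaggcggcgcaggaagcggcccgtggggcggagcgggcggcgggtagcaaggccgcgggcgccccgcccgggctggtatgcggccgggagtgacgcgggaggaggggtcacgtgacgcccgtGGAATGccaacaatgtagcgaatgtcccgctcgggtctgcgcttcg
Acta2: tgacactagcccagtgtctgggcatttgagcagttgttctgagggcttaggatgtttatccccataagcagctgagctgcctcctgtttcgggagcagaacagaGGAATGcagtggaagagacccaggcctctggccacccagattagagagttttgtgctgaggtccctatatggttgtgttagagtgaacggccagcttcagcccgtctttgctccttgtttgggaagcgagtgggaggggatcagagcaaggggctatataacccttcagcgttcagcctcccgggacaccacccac
Vcl: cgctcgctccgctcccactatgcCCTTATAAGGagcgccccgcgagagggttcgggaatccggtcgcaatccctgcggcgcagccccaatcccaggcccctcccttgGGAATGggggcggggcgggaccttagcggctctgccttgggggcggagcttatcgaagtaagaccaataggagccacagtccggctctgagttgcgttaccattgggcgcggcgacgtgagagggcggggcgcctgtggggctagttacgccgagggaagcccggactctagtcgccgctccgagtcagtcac
Counted from the start site, the hexamer lay at bases -103 to -98 in Ccn1, -65 to -60 in Amotl2, 5 to 10 in Lats2, -146 to -141 in Acta2 and -143 to -138 in Vcl. The CArG box of Vcl lay at -227 to -218, apart from its hexamer. A match describes the letters of these windows and no binding was measured.

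The deposited values are array intensities on a linear scale. Medians of the arrays ran from 237.4 to 251.5 units, and all pairs of arrays had Spearman correlations between 0.983 and 0.997 over probe sets. The arrays at 200 and 220 min stood lowest, with mean correlations of 0.9886 and 0.9889 to the others. Between 60 and 80 min 27.1% of genes had their largest change between neighbouring arrays, so a step there was common to many genes. The changes below are differences of log2(intensity + 16) from limma fits over 7436 genes whose mean level passed a filter at log2 7.83, and a gene was called at a Benjamini-Hochberg adjusted p under 0.05. The step contrast sets the 9 arrays from 80 to 240 min against the 4 arrays from 0 to 60 min. Its place was chosen from these same data, so its p-values are not independent of that choice. Of the 10 genes 9 were tested, and Ankrd1 lay below the filter.

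Ccn1, Ccn2, Amotl2 and Lats2 fell. They are the 4 of the 5 YAP/TEAD targets that were tested, and along a straight line over 4 h they were lower, between 1.21-fold for Amotl2 and 2.02-fold for Ccn2. Of the tested SRF targets and cytoskeletal genes, Acta2, Vim and Cav1 rose and Tagln and Vcl did not pass the test. Together 7 of the 9 tested genes were called by the line, 3 higher and 4 lower, where 39.9% of all tested genes were called (22.3% higher and 17.6% lower). The median slope of the 9 genes was -0.00237 log2 per hour, against 0.00484 over all tested genes, since the rises and falls balanced. Fewer cells expressing a gene and less RNA per cell cannot be told apart in these bulk samples.

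Ccn1 encodes a secreted matricellular protein that binds integrins and is a standard readout of YAP. Its brighter probe set, 1416039_x_at, read 1742 units in untreated cells and 1535, 1798 and 1512 units at 20, 40 and 60 min. From 80 to 240 min it read 1521, 1434, 1271, 1268, 1276, 1265, 1321, 1251 and 1033 units. The level declined stepwise through the course, with a plateau from 120 to 220 min and its lowest value on the last array. The fitted change over 4 h was -0.60 ± 0.085 (log2, SE), 1.52-fold lower, with an adjusted p of 0.000169. The 9 arrays from 80 min on averaged 10.35 ± 0.151 and those from 0 to 60 min 10.70 ± 0.125 (mean log2 level ± SD), and the groups overlapped by the array at 80 min. The second probe set, 1438133_a_at, followed it with r = 0.945 over 13 arrays. There the highest of the 9 arrays from 80 min on (1400 units) lay below the lowest of the 4 from 0 to 60 min (1422 units). The suffix x marks probe sets that may also bind transcripts of similar sequence, and here the set without that suffix moved the same way.

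Ccn2, also secreted and a YAP and TGF-beta target linked to matrix production, had the largest fall of the 10 genes. It read 1981, 1550, 1953 and 1779 units at 0, 20, 40 and 60 min. At 80 min it read 1060 units, and from 100 to 240 min 935, 858.6, 1096, 1253, 1063, 1247, 959.4 and 786.7 units. All 9 arrays from 80 min on lay below all 4 earlier ones. Among the 9 the slope was -0.03 ± 0.076 log2 per hour (adjusted p 0.864). The drop between 60 and 80 min was -0.74 log2 and the next largest change between neighbouring arrays was 0.37, between 200 and 220 min. The step was -0.82 ± 0.11 (log2, SE), 1.76-fold lower, with an adjusted p of 4.02e-05. A straight line gave -1.01 ± 0.237 over 4 h with an adjusted p of 0.00374. The late window (180 to 240 min) was lower than the early window (20 to 80 min) by a log2 difference of -0.62 ± 0.182, adjusted p 0.0259. That window call did not hold without the 20, 40, 60, 220 or 240 min array (adjusted p 0.0616 to 0.0861). The early window spans the drop, with its array at 80 min already low.

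Amotl2 encodes an angiomotin that binds YAP at junctions, and Lats2 encodes a kinase that phosphorylates YAP; both are targets of YAP and act as negative feedback. Amotl2 read 2754, 2613, 2834 and 2474 units from 0 to 60 min and 2377, 2584, 2483, 2347, 2288, 2429, 2488, 2262 and 2177 units from 80 to 240 min. The decline was shallow and the groups overlapped, with the array at 60 min inside the later range. The line fell by 0.27 ± 0.062 (log2, over 4 h), 1.21-fold, adjusted p 0.00315. Its step of -0.16 ± 0.047 had an adjusted p of 0.0107, which became 0.0551 without the array at 40 min, the highest one. Late against early it gave -0.14 ± 0.063 (adjusted p 0.122, and 0.0473 without the array at 80 min).

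Lats2 on its brightest probe set, 1439441_x_at, read 643.2, 609.4, 682.9 and 614.8 units from 0 to 60 min. From 80 to 240 min it read 608.3, 524.5, 531.3, 545.8, 517.1, 549.2, 528.1, 540.5 and 557 units. The groups did not overlap, but the array at 80 min lay just below the earlier range and the drop came between 80 and 100 min. The step was -0.22 ± 0.045 (1.17-fold lower, adjusted p 0.00109), and the line fell by 0.29 ± 0.078 over 4 h on the log2 scale (adjusted p 0.00876). All 6 Lats2 probe sets had slopes and steps below 0. On those other than the brightest, none with the suffix x, the groups of arrays overlapped. Over all 20393 probe sets of one gene 22.4% were called by the line and 25.1% by the step. There 2 of the 6 Lats2 sets passed for the line and 4 for the step. Among those that passed, 1425420_s_at (line and step) read at most 168.8 units and 1419679_at (step) at most 111.2 units. Both lay below the level of the gene filter, as did 1426156_at, at no more than 150.9 units, which passed neither. The 6 sets correlated with each other between 0.321 and 0.824 over 13 arrays.

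Ankrd1, a nuclear and sarcomeric ankyrin repeat protein and a common YAP readout, was dim on both of its probe sets. Probe set 1420991_at ranged from 130.1 to 173.2 units with 165.6 in untreated cells, and 1420992_at ranged from 95.61 to 117.5. Its mean level stood at the 27.3rd percentile of genes, so no test was made in the gene fit. In the fit over all probe sets, 1420992_at had a step of -0.11 ± 0.039 with an adjusted p of 0.0439, and 1420991_at had 0.02 ± 0.054 with an adjusted p of 0.868. The 2 sets correlated weakly (r = 0.345), and their steps had opposite signs.

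**Figure D1:**
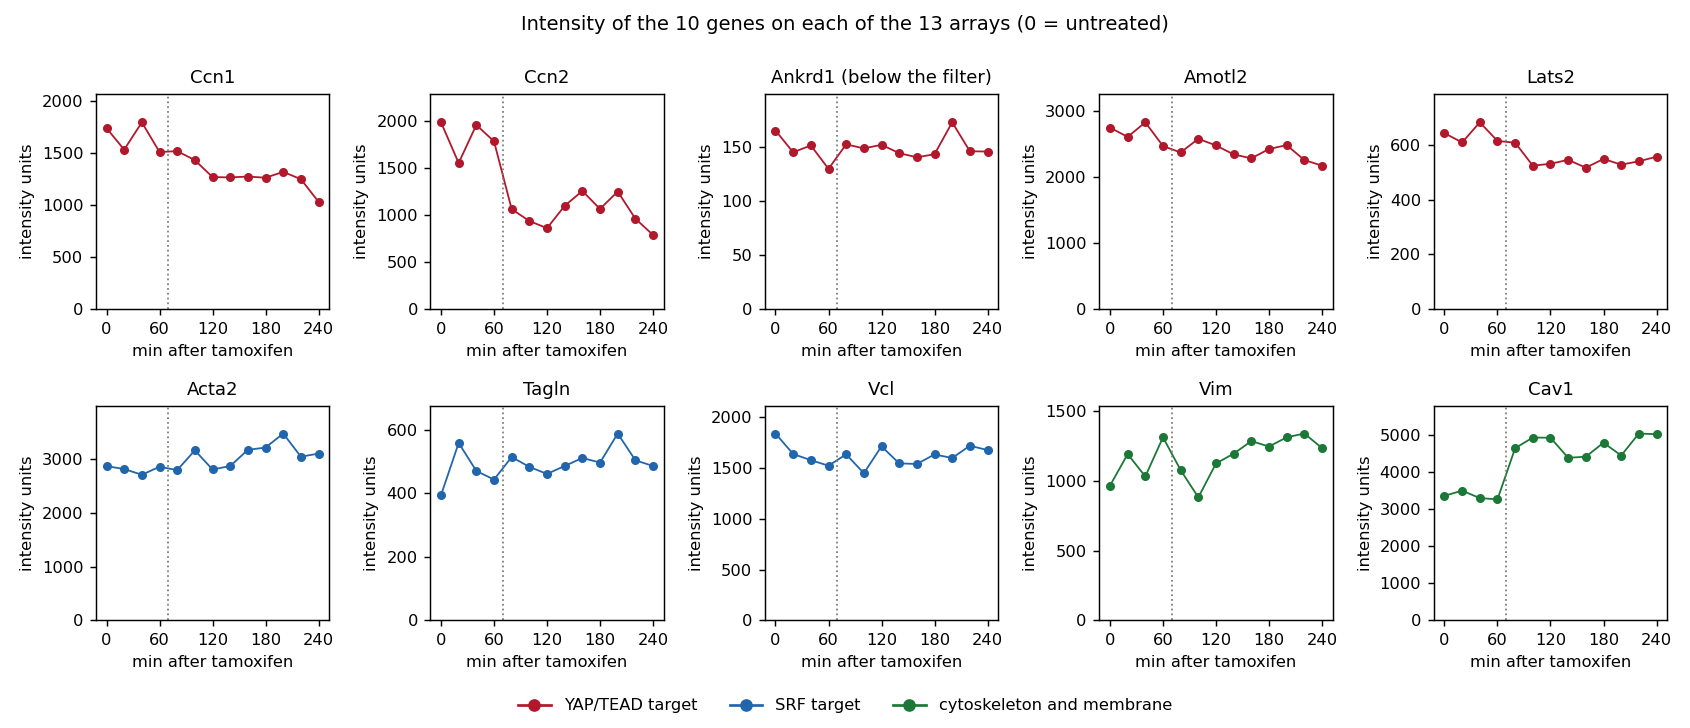
Intensity of the brightest probe set of each of the 10 genes (vertical axis, linear units from 0) against minutes after tamoxifen (horizontal axis, 0 is untreated), 1 point per array, coloured by role. The dotted line lies between 60 and 80 min, where Ccn2 drops to 1060 units, against 1779 at 60 min, and Cav1 rises to 4657 units, against 3273 at 60 min.

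Acta2, the smooth muscle actin that SRF drives in contractile cells, was higher at the end of the course. Its bright probe set, 1416454_s_at, read 2872, 2817, 2711 and 2860 units from 0 to 60 min and 2797, 3165, 2809, 2873, 3175, 3217, 3478, 3048 and 3104 units from 80 to 240 min. All 5 arrays from 160 min on, and the array at 100 min, lay above every array up to 60 min, while those at 80, 120 and 140 min did not stand clear of them. The line rose by 0.22 ± 0.068 over 4 h (log2, SE), 1.17-fold, with an adjusted p of 0.0165. The late window averaged 11.65 ± 0.084 and the early window 11.46 ± 0.032 (mean log2 level ± SD, 4 arrays each), a difference of 0.20 ± 0.052 (SE) with an adjusted p of 0.0164. That difference had an adjusted p of 0.0763 without the arrays at 200 and 220 min and 0.0519 without the array at 40 min. The step of 0.12 ± 0.051 had an adjusted p of 0.062, and of 0.0297 to 0.0464 without the array at 80, 120 or 140 min. The second probe set, 1456658_at, was dim at 102.1 to 137.6 units and ran the other way without passing (log2 -0.08 ± 0.080 over 4 h, adjusted p 0.528; r = -0.431 between the sets). Probe sets with the suffix s may bind more than one transcript, and what other actin transcripts add to the bright set was not tested.

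Tagln, the actin-binding protein transgelin, read 394.2, 558.8, 470.5 and 443.6 units from 0 to 60 min. From 80 to 240 min its lowest, median and highest readings were 461.3, 496.9 and 588.4 units, inside the earlier range but for the top value at 200 min. The untreated array was the lowest of the 13. The line gave 0.18 ± 0.108 over 4 h with an adjusted p of 0.195, and 0.0316 without the array at 20 min, which was high. The step of 0.11 ± 0.073 likewise had an adjusted p of 0.23, and 0.0263 without that array. The early window stood 0.32 ± 0.119 above the single untreated array, with an unadjusted p of 0.0197 and an adjusted p of 1.

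Vcl, the focal adhesion protein vinculin, was nearly flat. Its bright probe set read 1841, 1639, 1579 and 1524 units from 0 to 60 min. From 80 to 240 min its lowest, median and highest readings were 1450, 1635 and 1721 units. The untreated array was the highest, and the early window stood below it by a log2 difference of -0.21 ± 0.084 (unadjusted p 0.0291, adjusted p 1). Over 4 h the line gave -0.01 ± 0.080 with an adjusted p of 0.937, and its sign turned without the untreated array (0.02 log2 per hour) or the array at 160 min, and under quantile normalization. The 95% confidence interval of the slope ran from -0.05 to 0.04 log2 per hour. Its second probe set had a slope of the opposite sign, and neither was called.

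Vim, the intermediate filament protein of mesenchymal cells that cultured keratinocytes can also express, moved irregularly. It read 964.2, 1190, 1030 and 1310 units from 0 to 60 min and 1075, 880.4, 1123, 1193, 1283, 1244, 1310, 1337 and 1233 units from 80 to 240 min. The groups overlapped, with the lowest reading at 100 min and steadier, higher readings from 160 min on. The line rose by 0.33 ± 0.126 over 4 h on the log2 scale with an adjusted p of 0.0481. That call was lost in 10 of 13 fits that left out 1 array, all but those without the array at 20, 60 or 100 min (adjusted p 0.0526 to 0.158), and without the arrays at 200 and 220 min together (adjusted p 0.184). It was also lost with median-centred arrays (0.0692) and with no filter (0.0616). The 3 Vim probe sets moved together (r between 0.803 and 0.963), all with slopes above 0 and none called over all probe sets. The step was 0.08 ± 0.100 with an adjusted p of 0.566.

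Cav1 encodes caveolin, the coat protein of the membrane pits called caveolae, which flatten under tension. It read 3368, 3508, 3306 and 3273 units from 0 to 60 min and 4657, 4943, 4939, 4396, 4426, 4804, 4458, 5052 and 5034 units from 80 to 240 min. The lowest array from 80 min on (4396 units) lay well above the highest of the earlier 4 (3508 units). The change between 60 and 80 min was 0.51 log2, and no other pair of neighbouring arrays differed by more than 0.18. The step was 0.49 ± 0.042 (log2, SE), 1.41-fold higher, with an adjusted p of 1.11e-06. Among the 9 arrays after the step the slope was 0.02 ± 0.029 log2 per hour with an adjusted p of 0.751.

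**Figure D2:**
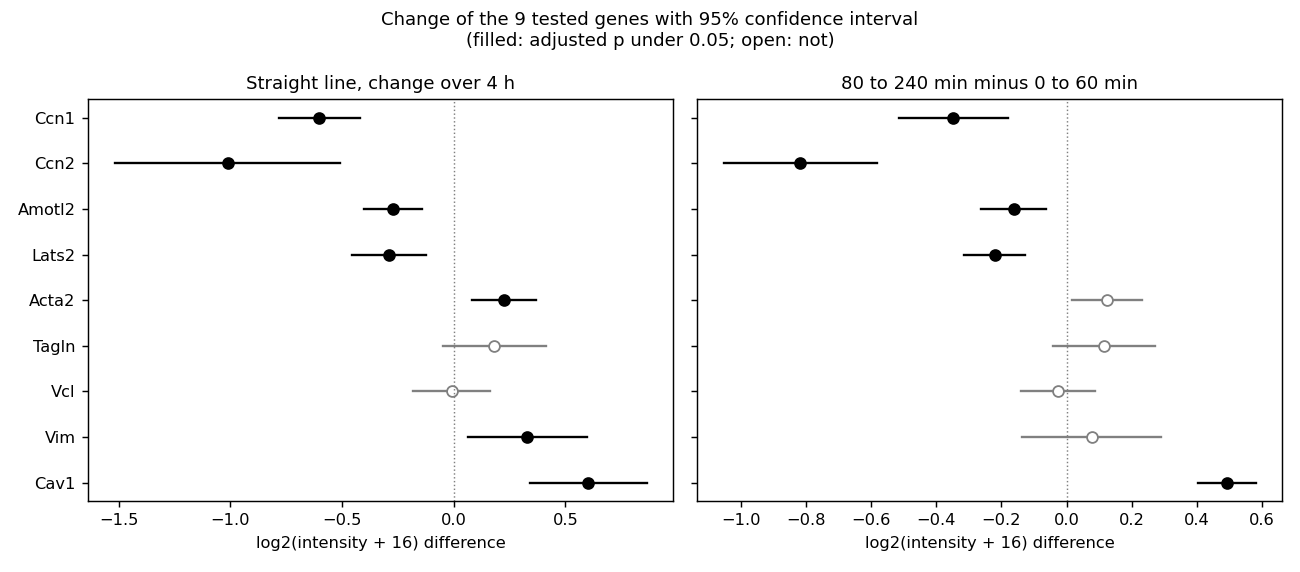
Fitted difference in log2(intensity + 16) for the 9 tested genes, as points with 95% confidence intervals. The left panel is the straight line over 4 h and the right panel is 80 to 240 min minus 0 to 60 min; filled points have an adjusted p under 0.05. Ccn2 lies furthest below 0 in both panels, and Cav1 lies above 0 in both.

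Of the 9 tested genes 5 passed the step contrast, Cav1 higher and Ccn1, Ccn2, Amotl2 and Lats2 lower, where 41.7% of all tested genes passed (21.7% higher and 20.1% lower). The 9 later arrays did not overlap the 4 earlier ones for 3 of the 9 genes on their brightest probe set (Cav1 higher, Ccn2 and Lats2 lower), against 22.7% of all tested genes (11.7% higher and 11% lower). Late against early, 5 of 9 passed, Acta2 and Cav1 higher and Ccn1, Ccn2 and Lats2 lower, against 26.3% of all genes (15.2% higher and 11.1% lower). Without the arrays at 200 and 220 min 2 of the 9 passed that contrast, Ccn1 and Cav1, while the step contrast called 5 of 9 there too. A spline of time called 5 of 9 (Ccn1, Ccn2, Amotl2, Lats2 and Cav1), against 24.9% of all genes, and the Amotl2 call was lost without the array at 0, 20, 40, 140, 160, 180, 220 or 240 min (adjusted p 0.0521 to 0.106). The spline also passed for Vim without the array at 60 min (adjusted p 0.0391) and for Acta2 without that at 100 min (0.0317). Early against untreated, limma called 0 of 9 and 0% of all genes, with 2 of 9 and 1.51% of all genes at an unadjusted p under 0.05.

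No slope after the step passed the test. Over the 9 arrays from 80 to 240 min limma called 0 of 9 slopes and 0.0672% of all genes, with 2 of 9 and 18.3% of all genes at an unadjusted p under 0.05. The 2 were Ccn1, with -0.13 ± 0.035 log2 per hour (adjusted p 0.127), and Vim, with 0.15 ± 0.044 log2 per hour (adjusted p 0.14). When the step and the line were fitted side by side, none of the 9 slopes passed. There the slope of Ccn1 was -0.13 log2 per hour (adjusted p 0.0822), that of Ccn2 -0.03 (0.83) and that of Cav1 0.01 (0.803).

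Across the 13 arrays all 6 pairs of the 4 tested YAP/TEAD targets had positive correlations. The correlation of log2 levels was 0.878 between Ccn1 and Amotl2, 0.834 between Ccn1 and Ccn2 and 0.79 between Ccn1 and Lats2. Ccn2 and Cav1 ran opposite, with r = -0.963. Within the 9 arrays from 80 min on, after the step, the values were 0.666, 0.445, 0.232 and -0.868 for the same pairs, so the opposite course of Ccn2 and Cav1 was also present there, and Ccn1 and Lats2 were weakly related. The other 3 pairs had 0.181 (Ccn2 and Amotl2), -0.162 (Ccn2 and Lats2) and -0.246 (Amotl2 and Lats2) within those 9 arrays, so the pairs did not share a direction there. The Acta2 and Tagln pair had r = 0.471 over 13 arrays and 0.663 over the 9 later ones. Over the 13 arrays Vcl had correlations between -0.309 and 0.244 with each of the other genes, and over the 9 later ones between -0.443 (Amotl2) and 0.554 (Vim). All these values share the arrays and the common step, and they describe the courses without a test.

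**Figure D3:**
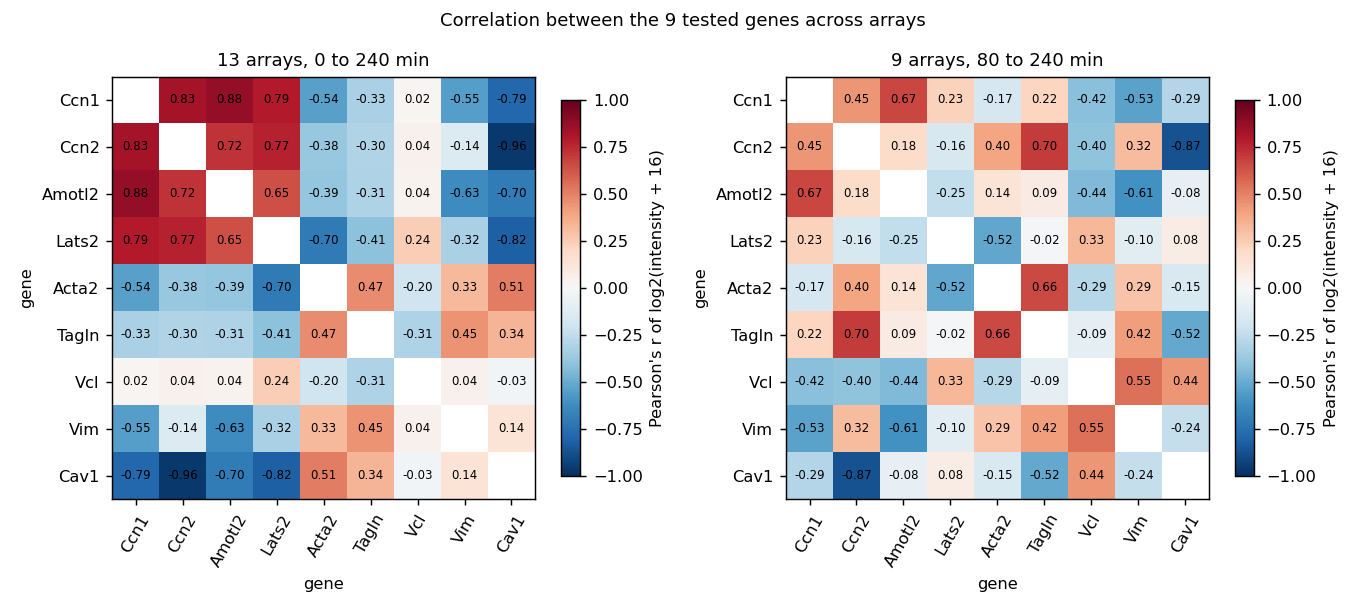
Pearson's r of log2(intensity + 16) between each pair of the 9 tested genes, over 13 arrays (left) and over the 9 arrays from 80 to 240 min (right), on a colour scale from -1 to 1. The block of Ccn1, Ccn2, Amotl2 and Lats2 is positive on the left, and the Ccn2 and Cav1 pair is strongly negative in both panels (-0.963 and -0.868).

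The tested genes whose courses were most like those of 4 of these genes over the 13 arrays were named by Pearson's r, unnamed transcripts skipped. For Ccn1 they were Btbd3 (0.981), Smox (0.966) and Crct1 (0.965). For Ccn2 they were Stambpl1 (0.968), Atl3 (0.965) and Adm (0.965). For Acta2 they were Habp4 (0.911), Idh2 (0.909) and Setdb1 (0.909). For Cav1 they were Sncg (0.989), Ces2g (0.987) and Pard6g (0.986). Adm, a secreted vasodilator peptide, had a step of -1.14 log2, of the same sign as that of Ccn2. Sncg, a synuclein, had one of 0.81, of the same sign as that of Cav1. Both were picked by likeness over these same arrays, so a like sign follows from that choice.

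A list of 24 YAP/TEAD targets holds Ccn1, Ccn2, Ankrd1, Amotl2 and Lats2. Of its genes 17 were tested and 12 were called by the line, 5 higher and 7 lower, against 39.9% of all tested genes. Without the 4 tested genes above, 13 remained, with 5 higher and 3 lower and a median slope of -0.00718 log2 per hour, against 0.00484 over all genes. Gadd45a, a growth arrest gene induced by DNA damage, fell by 1.09 ± 0.145 (log2, over 4 h) (adjusted p 0.00013). It read 943.7, 1050, 1084 and 1077 units from 0 to 60 min, and between 490.5 and 749 units on the 9 arrays from 80 min on. F3, tissue factor, which starts coagulation, fell by 0.967 on the same scale (adjusted p 0.000303), to 1067 to 1553 units from 80 min on, against 1886 to 2264 before. Axl, a receptor tyrosine kinase, rose by 0.38 (adjusted p 0.00338), and reached 2219 to 2469 units from 80 min on, against 1816 to 2000 before. Birc5, the mitotic protein survivin, rose by 0.52 (adjusted p 0.00321), with overlapping groups. The other CCN genes Ccn3, Ccn4 and Ccn5 lay below the filter, at no more than 179.2 units on any array.

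YAP and TAZ themselves did not pass the test. Yap1 read 1568 units in untreated cells and between 1527 and 1776 over the course, with 0.10 ± 0.059 log2 over 4 h (adjusted p 0.173). Wwtr1, which encodes TAZ, read 1170 units untreated and between 1093 and 1344 over the course, with -0.07 ± 0.072 (adjusted p 0.453). Of 25 pathway genes 19 were tested, and 3 were higher and 5 lower by the line, Amotl2 and Lats2 among the lower ones. The line called 22.3% of all tested genes higher and 17.6% lower. Nf2, the upstream activator merlin, rose by 0.30 ± 0.059 (log2 over 4 h, adjusted p 0.00126), and Tead2, a TEAD factor, rose by 0.34 ± 0.095 (adjusted p 0.0107, and 0.0572 without the arrays at 200 and 220 min). Wwc1, the scaffold KIBRA, fell by 0.285 on that scale (adjusted p 0.00779). Taok1, a kinase upstream of the Hippo kinases, had a line of -1.03 ± 0.313 (adjusted p 0.0166), which rested on 437.4 and 298.8 units at 200 and 220 min, and its adjusted p was 0.128 without those arrays.

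Of 29 SRF and MRTF targets of the cytoskeleton 26 were tested. By the line 3 were higher and 5 lower, against 22.3% and 17.6% of all tested genes. By the step, 2 were higher and 9 lower, and none of the 11 were Acta2, Tagln or Vcl. These 11 of 26 stand against 41.7% of all tested genes called by the step, so the total is near the background. By direction, the 2 higher and 9 lower stand against 21.7% and 20.1% of all tested genes. Falls thus outnumbered rises in this list and not over all tested genes. Of the genes that the line called, those with the steepest falls were Pdlim7, Zyx, Smtn and Itga5. Csrp1, a LIM protein of the actin cytoskeleton, had a larger step (-0.43, adjusted p 0.00348) but did not pass by the line (adjusted p 0.121). Zyx, the focal adhesion protein zyxin, fell by 0.416 ± 0.111 (log2, over 4 h) (adjusted p 0.0082). It read 1720 to 2165 units from 80 min on, against 2287 to 2558 units up to 60 min. Pdlim7, a PDZ and LIM adaptor on actin filaments, fell by 0.432 (adjusted p 0.0114), Smtn, the actin-binding smoothelin, by 0.382 (0.0048) and Itga5, an integrin subunit of the fibronectin receptor, by 0.316 (0.00167). For all 4 the 9 later arrays lay below the 4 earlier ones. The cytoplasmic actins were flat, with 0.03 ± 0.035 for Actb (adjusted p 0.57) and 0.0029 ± 0.027 for Actg1 (adjusted p 0.943), and the sign for Actg1 turned under median centring and quantile normalization.

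Srf read 1056 units untreated and between 763.4 and 1156 over the course, with -0.05 ± 0.135 log2 over 4 h (adjusted p 0.789). Among 5 tested genes of SRF and its cofactors 1 passed by the line, against 39.9% of all tested genes. This was Elk3, a ternary complex factor that binds DNA beside SRF. Elk3 read 878.6, 897.2, 794 and 822.5 units from 0 to 60 min, and its lowest, median and highest readings from 80 to 240 min were 1326, 1458 and 1614 units. All 9 later arrays lay far above the 4 earlier ones. The step was 0.77 log2 (adjusted p 3.35e-07), and the line rose 1.90-fold over 4 h (adjusted p 0.00155). Mrtfb and Myocd lay below the filter.

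Of 24 focal adhesion and actin-binding genes, Vcl included, 23 were tested. By the line 6 were higher and 3 lower, against 22.3% and 17.6% of all tested genes. Parva, an adaptor of integrin-linked kinase, rose by 0.52 ± 0.085 (adjusted p 0.000379), Capg, a filament-capping protein, by 0.29 (0.000328) and Cfl1, the filament-severing cofilin, by 0.19 (0.00086). The 3 lower genes were Zyx, given above, Actn1 (-0.19, adjusted p 0.0356) and Ezr (-0.15, adjusted p 0.0345). By the step 5 were higher and 5 lower, against 21.7% and 20.1% of all tested genes.

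Around Cav1, 6 of 9 caveolar genes were tested. By the line 3 were higher and 1 lower, against 22.3% and 17.6% of all tested genes. Cavin1, the coat protein that caveolae need beside caveolin, rose by 0.48 ± 0.092 over 4 h on the log2 scale (adjusted p 0.00112). It read 866.6 to 1017 units from 80 min on, against 685.2 to 820.6 units up to 60 min. Cavin3 rose by 0.26 ± 0.088 (adjusted p 0.0261), with an adjusted p of 0.129 without the arrays at 200 and 220 min, and between 0.0502 and 0.0674 without the array at 20, 40, 200 or 220 min alone. Pacsin3, a membrane-bending protein of caveolae, fell by 0.719 ± 0.15 (adjusted p 0.00183), to 693.3 to 861.9 units from 80 min on, against 1034 to 1239 units before. Cav2, the partner of Cav1, gave 0.10 ± 0.20 by the line with an adjusted p of 0.714. Its step was 0.28 (adjusted p 0.0615), of the same sign as that of Cav1. From 80 min on its slope was -0.15 log2 per hour (adjusted p 0.265). Of 9 genes of intermediate filaments other than keratin and of the nuclear lamina, Vim included, 6 were tested. By the line 2 were higher and 1 lower, against 22.3% and 17.6% of all tested genes. Lmnb1, a lamin, rose by 0.32 ± 0.111 (adjusted p 0.0314) and Nes, nestin, fell by 0.247 ± 0.083 (adjusted p 0.0276). The Lmnb1 call was lost without the array at 0, 20, 180 or 200 min (adjusted p 0.0543 to 0.104) and the Nes call without that at 0, 20, 40 or 240 min (0.0519 to 0.121).

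**Figure D4:**
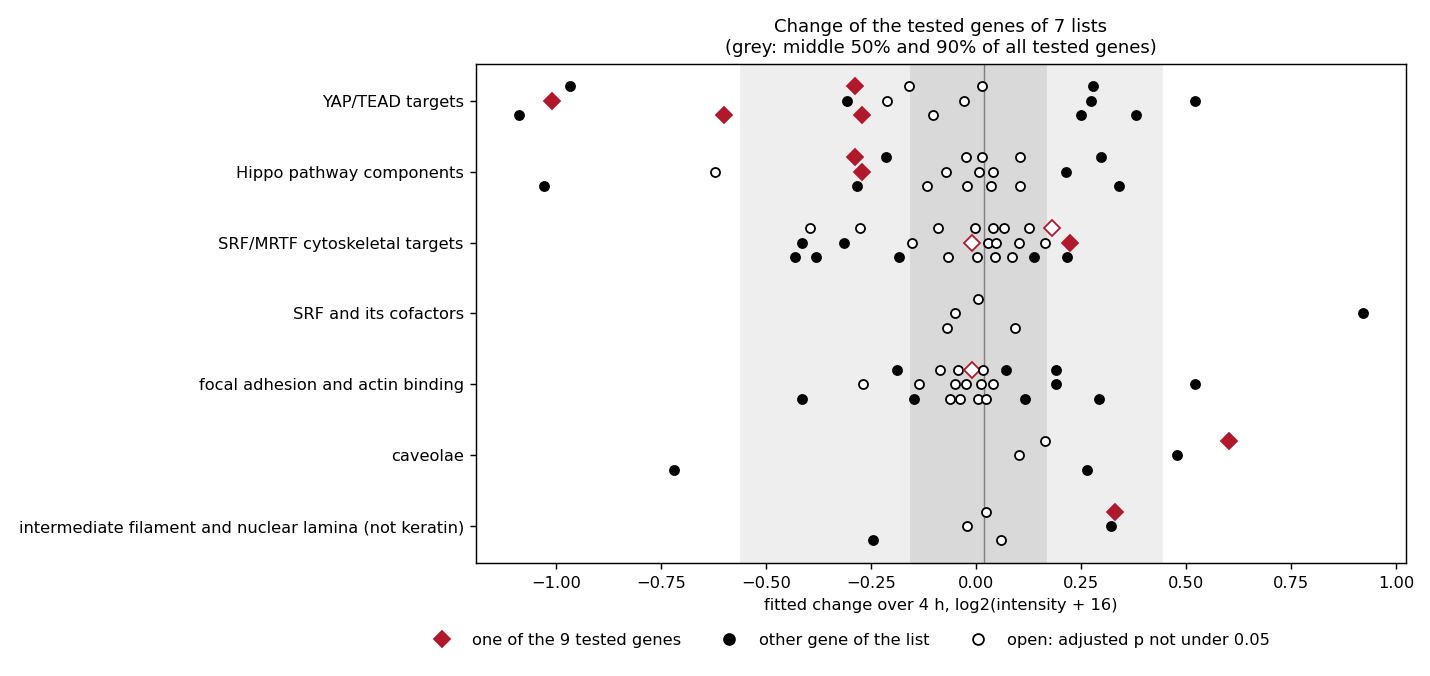
Fitted change over 4 h in log2(intensity + 16) for every tested gene of 7 lists, 1 point per gene, with red diamonds for the 9 tested genes described above, some of them in 2 lists, and open symbols for an adjusted p of 0.05 or more. Grey bands hold the middle 50% (-0.16 to 0.17) and 90% (-0.56 to 0.44) of all tested genes. Ccn1, Ccn2, Gadd45a and F3 are among the genes left of the wider band, and Cav1 and Elk3 are among those right of it.

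Of 14 keratinocyte markers 13 were on the array and 12 passed the filter, while Krt15 was dim, at 127.4 to 144.2 units. The summed intensity of the 13 was 76120 to 80470 units from 80 min on, against 76160 to 79910 units before. Trp63 rose by 0.26 ± 0.096 over 4 h on the log2 scale (adjusted p 0.0425). It lost the call without the array at 0, 20, 40, 60, 140, 160, 180 or 200 min (adjusted p 0.0519 to 0.116). Whether its probe set also reads RNA of the DNp63alpha fusion was not tested. Krt5, the basal keratin, also rose (0.11 ± 0.028, adjusted p 0.00802), and Jup, plakoglobin, fell by 0.141 (adjusted p 0.0193). The Jup call was lost under quantile normalization (0.0615) and without the array at 0 or 20 min (0.0653 and 0.062). Of 10 smooth muscle and myofibroblast markers, which include Acta2 and Tagln, 4 passed the filter and Myh11, Cnn1, Actg2, Lmod1, Mylk and Myocd did not. The sum of all 10, dim ones included, was 4974 to 5942 units from 80 min on, against 5101 to 5226 units before. Acta2 alone read 2797 to 3478 units of it from 80 min on, against 2711 to 2872 before. Smtn fell, as given above, and Des did not pass by the line (0.02 ± 0.097, adjusted p 0.867). Of 15 fibroblast markers 5 passed, and Dcn, Lum, Thy1, Pdgfra and Col3a1 were among those below the filter. All 15, dim ones included, summed to 6495 to 7304 units from 80 min on, against 5671 to 6350 before. S100a4 and Fbln1 rose by the line, and S100a4 alone read between 2668 and 4442 units of that sum. Fbln1 was dim, at 202.9 to 249.3 units. Fn1 (-0.16 ± 0.129 log2 over 4 h, adjusted p 0.352), Col1a1 (0.10, adjusted p 0.262) and Col6a1 (0.03, adjusted p 0.776) did not pass. Of 9 melanocyte markers 8 were on the array and 7 passed the filter. These 8 summed to 6341 to 7062 units from 80 min on, against 6682 to 7633 before. Of 10 endothelial and immune markers 2 passed the filter. All 10, most of them dim, summed to 1576 to 1865 units, against 1710 to 1930 before. By the line 1 gene of each of these lists passed, where 39.9% of all tested genes did. They were Mitf with -0.35 ± 0.090 and Cd68 with -0.55 ± 0.104 (adjusted p 0.00699 and 0.000979). The Mitf call was lost without the arrays at 200 and 220 min (0.0621). The part of these other markers in the courses of Acta2, Vim and Cav1 was not tested.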

How the data were processed

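Biotin-labelled cRNA of 13 samples was hybridised to Affymetrix arrays, per the labels' protocols. The authors deposited 1 intensity per probe set and array on a linear scale, for 22690 probe sets; the software and the scaling are not given in the sources used here, and scaling removes changes shared by most transcripts. The free-text description names induction for every sample, so groups were taken from the titles. Intensities were used as log2(intensity + 16), which understates changes of dim genes. The platform table gave 1 gene to 20393 probe sets, several to 691 and none to 1606. Symbols of 20364 were updated through the RefSeq table of GRCm38.p6. The brightest probe set on average stood for its gene, and genes under the 40th percentile were left out, leaving 7436.

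All fits used limma 3.58.1 under R 4.3.3 (eBayes with intensity trend, two-sided, Benjamini-Hochberg over all 7436 genes): a line of time, a natural spline with 3 degrees of freedom, windows of 4 arrays in a fit of 4 levels, the step and the slope from 80 to 240 min. Neighbouring times stand in for replicates, and the single untreated array takes its spread from them. The median residual SD about the line was 0.0873 log2, and the number of arrays limits the precision. Named were all 10 genes, up to 4 genes of each list with the steepest called slopes, the 3 genes most like 4 of them, and Yap1, Wwtr1, Srf, Actb, Actg1 and Trp63. Cav2, Csrp1, Actn1, Ezr, Des, Fn1, Col1a1, Col6a1, the other CCN genes and markers below the filter were named after their values were seen. One gene list is not reported here. The genes and lists were chosen with earlier results of these data known. Scripts were tested on simulated data. Other pseudocounts, normalizations, filters and left-out arrays were tried.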

Additional observations from a re-analysis of the deposited data

How the results depend on the processing

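With 1 array per time, spread was measured about fitted curves, and the arrays carry no batch label. Leaving out 1 array in turn gave 2323 to 3087 genes for the line (6 to 8 of these 10 genes), 1244 to 2458 for the spline (4 to 6), 986 to 2707 for late against early (3 to 6), 0 for early against untreated, 2454 to 3172 for the step (4 to 6) and 0 to 237 for the slope from 80 to 240 min (0), where 237 came without the array at 240 min. No paired analysis was possible because each group holds 1 array.

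Testing all probe sets called 4571 for the line and 5117 for the step. The line beside the step called 1 gene and 0 of these 10. Without the arrays at 200 and 220 min late against early called 634 genes, 268 higher and 366 lower, against 1127 and 826 with all arrays, and 2 of these 10; median centring gave 811 higher and 1035 lower. Early against untreated called 1 gene with no filter or with all probe sets. The slope from 80 to 240 min called 5 genes, and 3 under median centring, quantile normalization, no filter or all probe sets.

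Signs that turned belonged to values that had not passed, except where the line was fitted beside the step. Per hour, the line of Vcl was 0.00429 under quantile normalization and 0.0152 beside the step, and that of Actg1 -0.000793 under centring, -0.000442 under quantile normalization and -0.001 without the arrays at 200 and 220 min. Beside the step the lines were 0.0221 for Pdlim7, -0.033 for Trp63, 0.000717 for Jup, -0.000941 for Yap1 and 0.117 for Srf. Lats2 early against untreated was 0.000736 under centring, and Tagln late against early -0.00991 without the arrays at 200 and 220 min. Over the fits without 1 array, the line ranged from -0.0118 to 0.0218 for Vcl, -0.00126 to 0.00638 for Actg1 and -0.026 to 0.00586 for Srf; early against untreated from -0.00326 to 0.166 for Cav1; the step from -0.0617 to 0.0283 for Vcl; and the slope from 80 min from -0.0374 to 0.0234 for Lats2, -0.0657 to 0.0768 for Ccn2 and -0.00112 to 0.0349 for Cav1. The cause was not tested.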
